A study of Mus musculus with 21 samples.

Results

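Eomes, Tbr1, Sstr2, Insm1, Gadd45g and Btg2 are genes of basal, or intermediate, progenitors of the developing cerebral cortex and of the first neurons these cells make. They were chosen by name, with earlier results of these data known, as the probe sets annotated to these symbols. They make up 6 of the 13850 genes tested on the arrays. The 6 genes were represented by 9 probe sets, all of which passed the filter on low values. Eomes, Insm1 and Btg2 had 2 probe sets each, and Tbr1, Sstr2 and Gadd45g had 1. In the mouse assembly GRCm38.p6 Eomes lies at chr9:118478186-118486132, Tbr1 at chr2:61802863-61814114, Sstr2 at chr11:113619327-113626028, Insm1 at chr2:146221997-146225020, Gadd45g at chr13:51846675-51848475 and Btg2 at chr1:134074865-134079155. Pax6, at chr2:105668896-105698410, shares its chromosome with Tbr1 and Insm1.

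Expression was measured on 21 Affymetrix arrays, 1 per sample, with RNA from the rostral cerebral cortex of day 14 (E14) mouse embryos. Sey, the Small-eye allele of Pax6, was represented by 4 mutant samples and 3 wild-type littermates on the C57BL/6J x DBA/2J (B6D2F1) background. The Leca4 allele was represented by 3 mutants and 4 wild-type littermates and the Leca2 allele by 4 mutants and 3 wild-type littermates, both on the 129 S6 background. The study set the alleles side by side to ask how subdomains of the Pax6 paired domain act in neurogenesis and proliferation. The Small-eye allele is known to truncate the protein, and the labels do not place the Leca4 and Leca2 mutations. Each mutant group was compared with its own littermates, and no group received a treatment. Whether the mutants carried 1 or 2 mutant copies is not given in the sources used here, and the labels give no sex. The labels call the samples of a group biological replicates.

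Radial glia, the apical progenitors of the cortex, express the transcription factor Pax6 and the proneural factor Neurog2. Their neurogenic daughters leave the ventricular surface and switch on Eomes, also called Tbr2, divide away from the ventricle, and give rise to glutamatergic neurons, of which the early-born ones switch on Tbr1. Eomes and Tbr1 belong to the T-box family of transcription factors, Insm1 is a zinc-finger factor that promotes the formation of basal progenitors, Gadd45g is a growth-arrest gene of newly committed precursors, Btg2, also called Tis21, is an antiproliferative gene that marks neurogenic divisions, and Sstr2 is a somatostatin receptor.

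Eomes, Tbr1 and Sstr2 fell together in one of the lines, as described below, and the RefSeq windows of 250 bases before their annotated starts (assembly GRCm38.p6, 5′ to 3′) are shown for that reason, with capitals for AATTAA on either strand in Eomes and Tbr1 and for TGACGTCA in Sstr2.
Eomes, chr9:118477939-118478188, plus strand: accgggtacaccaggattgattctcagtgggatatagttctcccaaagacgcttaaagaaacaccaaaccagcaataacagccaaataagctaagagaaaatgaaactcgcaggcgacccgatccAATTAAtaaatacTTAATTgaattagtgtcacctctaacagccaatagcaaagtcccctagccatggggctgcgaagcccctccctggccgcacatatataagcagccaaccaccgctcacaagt
Tbr1, chr2:61804203-61804452, plus strand: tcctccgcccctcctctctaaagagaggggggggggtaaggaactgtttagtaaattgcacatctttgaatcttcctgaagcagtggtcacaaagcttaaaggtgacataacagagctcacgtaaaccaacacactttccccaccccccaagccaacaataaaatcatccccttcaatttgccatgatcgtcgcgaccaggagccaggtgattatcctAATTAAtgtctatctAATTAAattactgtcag
Sstr2, chr11:113619077-113619326, plus strand: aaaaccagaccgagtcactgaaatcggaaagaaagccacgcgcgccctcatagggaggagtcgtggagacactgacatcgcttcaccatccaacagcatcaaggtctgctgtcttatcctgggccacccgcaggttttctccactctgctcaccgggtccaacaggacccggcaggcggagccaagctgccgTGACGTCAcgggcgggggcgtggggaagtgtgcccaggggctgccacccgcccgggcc
The windows of Eomes and Tbr1 each held AATTAA 2 times, and 2.03% of 32841 promoter windows of the same length held it 2 or more times. In Tbr1 both matches overlap TAATTA, letters that many homeodomain proteins bind, and 0.445% of all windows held TAATTA 2 or more times. The Eomes window held no TAATTA. The Sstr2 window held TGACGTCA, the cAMP response element, as did 1.55% of all windows, and neither T-box window held it. The window of Btg2, which did not pass the test in Sey, also held TGACGTCA, and that of Gadd45g did not. The T-box core GGTGTGA, present in 3.33% of all windows, was found in none of the 3 windows shown. CCAAT occurred 2 times in the Eomes window and not in the other 2, against 1 or more matches in 33.9% of all windows, and the E-box CANNTG occurred 1 time in Tbr1 and not in Eomes or Sstr2, against 66.2%. All 6 motifs were searched on both strands and chosen after the letters were seen, and a match describes the letters only. AT-rich letters are commoner in AT-rich windows: the G and C content was 46.4% in Eomes, 45.2% in Tbr1 and 63.6% in Sstr2, with a median of 52.4% over all windows. The Eomes window ends 3 bases inside the annotated span of the gene, and the Tbr1 window lies wholly inside that of Tbr1, since an alternative transcript starts further upstream.

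Before the results, the arrays themselves were compared. The medians of the log2 values per array were 6.03 to 6.07 for Sey, 6.25 to 6.26 for Leca4 and 6.12 to 6.18 for Leca2, so that levels are not compared across lines. Arrays of a group correlated across probe sets with r between 0.9931 and 0.9972. By their Xist and Y-linked transcripts, the Sey mutants were 3 females and 1 male against 3 male controls, the Leca2 mutants 2 females and 2 males against 3 female controls, and the Leca4 mutants 1 female and 2 males against 1 female and 3 males. On its brightest probe set Pax6 was higher on every mutant array than on every littermate array, by 1.47-fold in Sey, 1.4-fold in Leca4 and 1.9-fold in Leca2 (limma adjusted p = 0.000184, 0.00276 and 1.1e-05), while its 3 other probe sets that passed the filter overlapped between the groups in Leca4. These probe sets report the amount of transcript and do not read the mutations, so they do not check the genotypes. Genes that mark the dorsal telencephalon, of which 7 were tested, were well above the filter level, with Lhx2 at 12.36 ± 0.03 (SD, n = 3) and Emx1 at 9.39 ± 0.06 in Sey controls.

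In Sey mutants the T-box genes Eomes and Tbr1 and the receptor gene Sstr2 fell, Gadd45g and Insm1 rose, and Btg2 was not called. In Leca4 and Leca2 mutants none of the 6 genes passed the test. A gene is called, and said to rise or fall, at a Benjamini-Hochberg adjusted p under 0.05 over all 13850 genes in limma, and values are log2 RMA expression. The 6 genes were chosen with earlier results of these data known, so counts of called genes among them are a description only. In Sey 5 of the 6 genes were called, 2 upward and 3 downward, where 20.2% of all genes were called, 10.7% upward and 9.41% downward. In 5 of the 6 the Sey groups did not overlap, as for 31% of all genes. The 5 calls held with a term for sex in the model. The Insm1 call rests on 1 of its 2 probe sets, as the second changed by 0.02 ± 0.29 (limma adjusted p = 0.977). In Leca4, where 5.62% of all genes were called (3.39% upward and 2.24% downward), 0 of 6 were called. At an unadjusted limma p under 0.05 there was 1 of the 6, against 2531 of all 13850 genes. In Leca2, where 0.477% were called (0.173% upward and 0.303% downward), 0 of 6 were called and 0 had an unadjusted p under 0.05, against 948 of all 13850 genes. In tissue RNA, fewer cells of a type and less RNA per cell cannot be told apart.

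**Figure D1:**
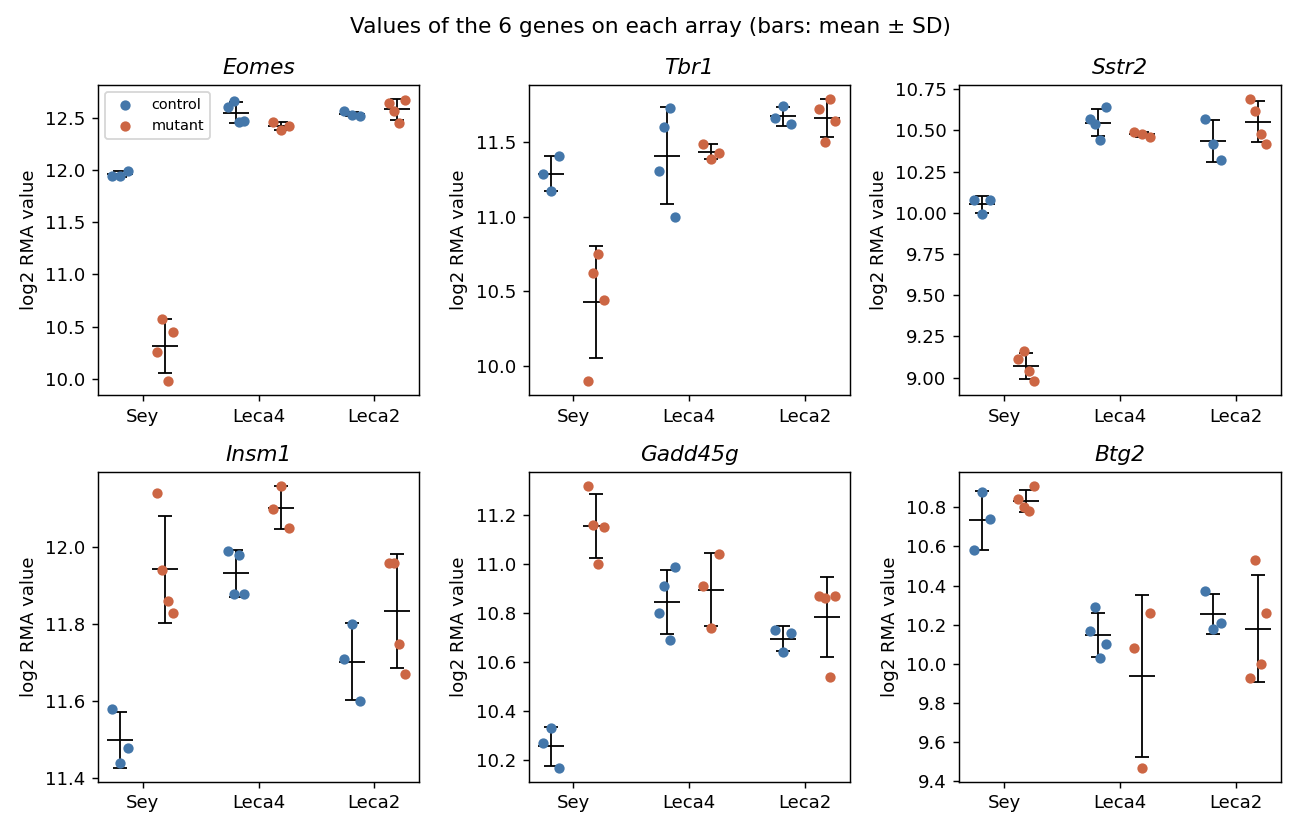
Log2 RMA value (y axis, each panel with its own range) of the 6 genes on every array, by line (x axis), with littermate controls in blue and mutants in orange and bars for the mean ± SD. In the Sey line the mutants lie below all controls for Eomes, Tbr1 and Sstr2 and above them for Insm1 and Gadd45g, and in Leca4 and Leca2 the groups overlap except for Insm1 in Leca4.

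Eomes, the T-box gene of intermediate progenitors, read 11.94, 11.94 and 11.99 in the Sey controls and 10.26, 10.57, 9.98 and 10.45 in the Sey mutants. The controls spanned 0.05 and every mutant lay more than 1 log2 unit below them. The fall was 3.13-fold, or -1.64 ± 0.10 (SE of the fit; limma adjusted p = 7.9e-10), and it ranked 16th of 13850 genes by p. The second probe set of Eomes gave nearly the same picture, with 12.12, 12.19 and 12.11 in controls against 10.40, 10.66, 10.09 and 10.59 in mutants (-1.70 ± 0.10, adjusted p = 1.42e-09 over all probe sets). The order of the 4 mutants was the same on both probe sets, with mutant 3 lowest and mutant 2 highest.

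Tbr1, the T-box gene of early-born glutamatergic neurons, read 11.29, 11.17 and 11.41 in the Sey controls and 9.90, 10.62, 10.75 and 10.44 in the mutants. Here mutant 1 lay lowest and mutant 3 highest, and all 4 lay below every control. The fall was 1.82-fold (-0.86 ± 0.16, limma adjusted p = 0.000712), with a wider spread between mutants (SD 0.37) than for Sstr2 (SD 0.08). Without mutant 1 the change was -0.69, and the call held without any single array of the line.

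Sstr2, the somatostatin receptor gene, read 10.08, 9.99 and 10.08 in the Sey controls and 9.11, 9.16, 9.04 and 8.98 in the mutants. Both groups were tight and about 1 log2 unit apart, a fall of 1.97-fold (-0.98 ± 0.07, limma adjusted p = 1.09e-08). Its sister gene Sstr3 also fell in Sey (limma adjusted p = 2.35e-06), from a control mean of 5.79 ± 0.22 to 4.84 ± 0.14 (SD), but no mutant array exceeded the level that the filter used (5.37 to 5.60, depending on the array), so that no size is given. The peptide ligand genes Sst and Cort changed by -0.07 ± 0.29 and -0.13 ± 0.09 (adjusted p = 0.911 and 0.381).

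Gadd45g moved the other way. It read 10.27, 10.33 and 10.17 in the Sey controls and 11.32, 11.16, 11 and 11.15 in the mutants, all above the controls. The rise was 1.87-fold (0.90 ± 0.09, limma adjusted p = 1.18e-06). Of the related growth-arrest genes, Gadd45a rose by 0.34 ± 0.11 (adjusted p = 0.0274) and Gadd45b was not called at 0.32 ± 0.12 (adjusted p = 0.063). Gadd45b was called in Leca4, with a change of 0.57 ± 0.12 (adjusted p = 0.00533).

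Insm1 read 11.58, 11.44 and 11.48 in the Sey controls and 12.14, 11.94, 11.86 and 11.83 in the mutants. The mutants lay above all controls, by 1.36-fold (0.44 ± 0.08, limma adjusted p = 0.00048). The second Insm1 probe set did not give this rise. It read 10.77, 10.64 and 10.65 in controls and 9.67, 10.86, 11.15 and 11.15 in mutants, with 3 mutants above the controls and mutant 1 far below them (0.02 ± 0.29, adjusted p = 0.977). Without mutant 1 it changed by 0.37 ± 0.21 (adjusted p = 0.301), and with the mean of both probe sets the Insm1 change of 0.23 missed the threshold (adjusted p = 0.28). The relative Insm2 had no Sey control above the filter level (5.18 ± 0.25, SD) and read 6.02 ± 0.22 (SD, n = 4) in mutants (adjusted p = 0.000556).

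Sey mutant 1 therefore stood lowest of its group on the Tbr1 probe set and on the second Insm1 probe set, but highest on the first Insm1 probe set and on Gadd45g. In Leca4, control 4 was likewise lowest for Tbr1 (11) and for the second Insm1 probe set (8.91), whereas it was not lowest on the others except for sharing the lowest value of the first Insm1 probe set. As a sign of RNA quality, the 3′ control probe set of Actb exceeded the 5′ one by 0.27 in Sey mutant 1 and between 0.28 and 0.34 on the other Sey arrays, and by 0.40 in Leca4 control 4 and between 0.38 and 0.44 in the other Leca4 controls. The part of RNA quality in these low readings was not tested.

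Btg2 read 10.58, 10.88 and 10.74 in the Sey controls and 10.84, 10.80, 10.78 and 10.91 in the mutants, so the groups overlapped (0.10 ± 0.15, limma adjusted p = 0.72). The 95% interval of the change ran from -0.22 to 0.41. Its second probe set changed by 0.07 ± 0.08 (adjusted p = 0.642), with an interval from -0.10 to 0.24. Among its relatives Btg1 rose in Sey by 0.51 ± 0.09 (adjusted p = 0.000235), and Tob1 and Tob2 were not called at -0.02 ± 0.11 and -0.12 ± 0.09 (adjusted p = 0.94 and 0.378).

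In the Leca4 line the controls read 12.60, 12.66, 12.46 and 12.47 for Eomes and the mutants 12.46, 12.38 and 12.42. The mutants lay at the lower end of the controls (-0.12 ± 0.10, limma adjusted p = 0.569), and the 95% interval of the change, from -0.33 to 0.08, does not reach the size of the fall in Sey. On the second probe set the mutants, at 12.05, 11.93 and 12.03, all lay below the controls, at 12.22, 12.22, 12.06 and 12.33 (-0.20 ± 0.10, adjusted p = 0.317). Tbr1 read 11.31, 11.60, 11.73 and 11 in Leca4 controls, a wider range than the 11.49, 11.39 and 11.43 of the mutants (0.03 ± 0.16, adjusted p = 0.957). The interval for Tbr1, from -0.31 to 0.37, is wide enough to hold moderate changes either way.

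Sstr2 in Leca4 read 10.57, 10.54, 10.44 and 10.64 in controls and 10.49, 10.48 and 10.46 in mutants (-0.07 ± 0.07, limma adjusted p = 0.678). Insm1 read 11.99, 11.88, 11.98 and 11.88 in controls and 12.10, 12.16 and 12.05 in mutants, which all lay above the controls, but the change of 0.17 ± 0.08 was not called (adjusted p = 0.265). Groups without overlap were found for 15.3% of all genes in Leca4, and Insm1 was the 1 gene of the 6. Gadd45g (0.05 ± 0.09) and Btg2 (-0.21 ± 0.15) overlapped between the groups, and the Btg2 value rested on Leca4 mutant 2, at 9.47 against 10.08 and 10.26 in the other mutants. Without that mutant Btg2 changed by 0.02, and its second probe set by 0.13 ± 0.08 with all arrays (adjusted p = 0.477).

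In the Leca2 line Eomes read 12.56, 12.53 and 12.52 in controls and 12.64, 12.56, 12.45 and 12.67 in mutants (0.04 ± 0.10, limma adjusted p = 1; interval from -0.16 to 0.25). Tbr1 read 11.66, 11.74 and 11.62 in controls and 11.72, 11.50, 11.79 and 11.64 in mutants (-0.01 ± 0.16, adjusted p = 1; interval from -0.35 to 0.33). Mutants of both T-box genes lay on either side of their controls. Sstr2 (0.11 ± 0.07), Insm1 (0.13 ± 0.08), Gadd45g (0.09 ± 0.09) and Btg2 (-0.08 ± 0.15) also overlapped with their controls in Leca2, with adjusted p between 0.877 and 1. None of the 6 genes had groups without overlap in Leca2, where 6.6% of all genes did.

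**Figure D2:**
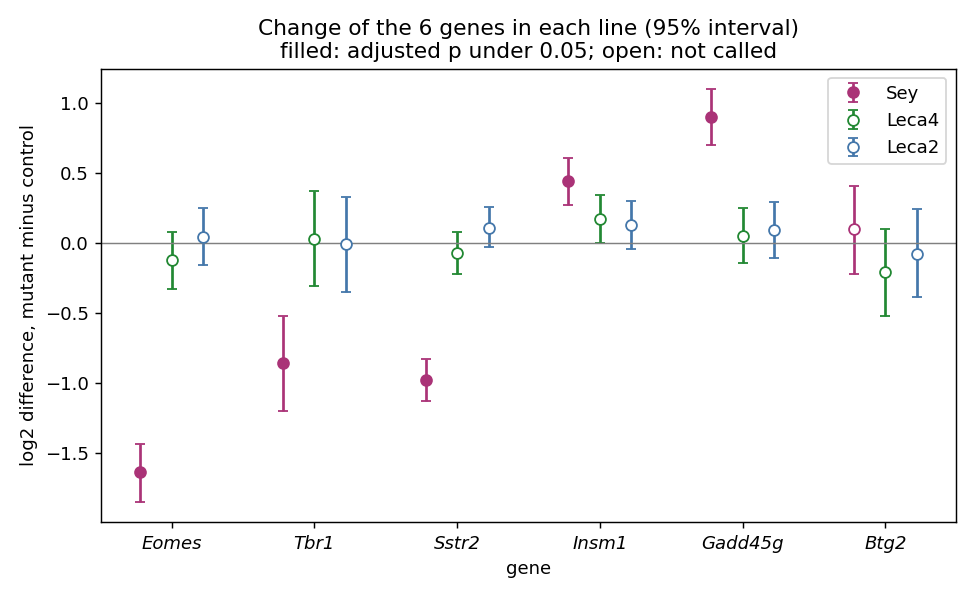
Log2 difference of mutant minus littermate control (y axis) for the 6 genes (x axis) in Sey, Leca4 and Leca2, with 95% intervals of the limma fit; filled points have an adjusted p under 0.05. In Sey the points run from -1.64 for Eomes to 0.90 for Gadd45g, and in Leca4 and Leca2 all points lie between -0.21 and 0.17.

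Whether the changes differ between lines was tested as the difference between the changes in the same limma model. As the Sey line has another strain background than both Leca lines, its differences from them cannot tell allele and background apart. Sey and Leca4 share no arrays, nor do the other pairs of lines. Between Sey and Leca4 the change differed for 4 of the 6 genes, where 12.8% of all genes were called. The difference, Sey minus Leca4, was -1.52 ± 0.14 for Eomes, -0.91 ± 0.10 for Sstr2, -0.89 ± 0.23 for Tbr1 and 0.85 ± 0.13 for Gadd45g (adjusted p = 6e-07, 5.21e-06, 0.0147 and 0.00027). For Insm1 it was 0.27 ± 0.11 and for Btg2 0.31 ± 0.21, neither of them called (adjusted p = 0.125 and 0.384).

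Between Sey and Leca2 the change differed for the same 4 genes, where 6.69% of all genes were called. The difference was -1.69 ± 0.14 for Eomes, -1.09 ± 0.10 for Sstr2 and 0.81 ± 0.13 for Gadd45g (limma adjusted p = 2.49e-07, 1.35e-06 and 0.000725). For Tbr1 it was -0.85 ± 0.23 (adjusted p = 0.0311), and this call was lost when any of Sey control 1, Sey control 3, Leca2 mutant 3, Leca2 control 1 or Leca2 control 3 was left out (values from -0.85 to -0.79, adjusted p between 0.0651 and 0.0764) and with a term for sex (-0.89, adjusted p = 0.128). Between Leca4 and Leca2 0 of the 6 genes were called in limma, where 2.38% of all genes were called. None of the 6 had an unadjusted p under 0.05, against 2038 of all 13850 genes. The intervals of these differences ran from -0.45 to 0.12 for Eomes and from -0.44 to 0.52 for Tbr1.

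The per-array difference between both T-box genes, Eomes minus Tbr1, removes any shift that an array has in common. It was 0.65, 0.77 and 0.59 in the Sey controls and 0.35, -0.05, -0.77 and 0.01 in the Sey mutants, so that every mutant lay below all controls. The change of -0.78 had a two-sided exact permutation p of 0.0571 (n = 4 and 3), or 0.171 adjusted over the 3 lines, where the smallest p the design allows is 0.0286. In Leca4 the difference was 1.14 ± 0.32 (SD, n = 4) in controls and 0.99 ± 0.01 (SD, n = 3) in mutants (exact permutation p = 0.429). In Leca2 it was 0.86 ± 0.07 (SD, n = 3) in controls and 0.92 ± 0.18 (SD, n = 4) in mutants (exact permutation p = 0.543; both adjusted p = 0.543). With 7 arrays a line and adjustment over the 3 lines, 1 line alone could not have passed 0.05, so the missing call in Sey says nothing on whether Eomes and Tbr1 fell unequally.

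**Figure D3:**
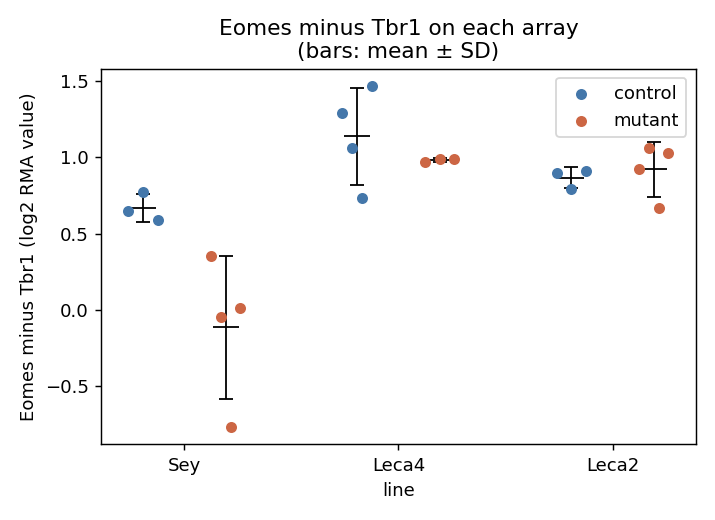
Log2 value of Eomes minus that of Tbr1 (y axis) on every array, by line (x axis), for littermate controls (blue) and mutants (orange), with bars for the mean ± SD. Sey mutants lie between -0.77 and 0.35, below the Sey controls at 0.59 to 0.77, and in the other lines the groups overlap.

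The other genes of intermediate progenitors, a list of 25, were all tested. The list was chosen with earlier results of these data known, so its counts are a description only. In Sey 15 fell and 4 rose, against 9.41% and 10.7% of all genes, with a median log2 change of -0.34 where that of all genes was 0.00. Of the falls, those of the proneural genes Neurog1 (8.20 ± 0.17 to 5.53 ± 0.13, SD) and Neurod4 (7.52 ± 0.18 to 4.90 ± 0.17, with no mutant array above the filter level) and of the netrin receptor gene Unc5d (9.28 ± 0.08 to 6.94 ± 0.26) had the smallest p (limma adjusted p = 5.95e-10, 4.64e-11 and 6.38e-09). Those that rose were the cyclin gene Ccnd2 (0.68 ± 0.06), the Notch ligand gene Dll3 (0.86 ± 0.11), the phosphatase gene Cdc25b (0.74 ± 0.10) and Hes6 (0.33 ± 0.06). Heg1, counted among the falls, did not exceed the filter level on any array of either group. With a term for sex 14 fell and 4 rose, and without Sey mutant 1 the counts were 15 and 5.

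In Leca4 2 of these 25 genes rose and 2 fell, against 3.39% and 2.24% of all genes (median 0.01, as for all genes). At an unadjusted limma p under 0.05 there were 12 of the 25, against 2531 of all 13850 genes. Neurog1 rose by 1.34 ± 0.15 and Dll3 by 0.45 ± 0.11, and the transcription factor genes Pou3f2 and Cux2 changed by -0.63 ± 0.16 and -0.57 ± 0.15 (limma adjusted p = 1.56e-05, 0.0196, 0.0211 and 0.0326). In Leca2 the falls were those of Neurod4 (-1.49 ± 0.13) and Neurog1 (-1.43 ± 0.15; adjusted p = 3.11e-06 and 3.55e-05), and no gene of the list rose. Of all genes 0.303% fell and 0.173% rose in Leca2. At an unadjusted limma p under 0.05 there were 5 of the 25, against 948 of all 13850 genes. Neurog2, which acts upstream of Eomes in the usual order of these factors, changed by -1.61 ± 0.12 in Sey, -0.04 ± 0.12 in Leca4 and -0.48 ± 0.12 in Leca2 (adjusted p = 1.52e-08, 0.915 and 0.102). In Leca2, a line in which Neurog1 and Neurod4 were 2.7-fold and 2.81-fold lower, Eomes was between 12.45 and 12.67 in mutants against 12.52 to 12.56 in controls. A dependence of Eomes on these genes was not tested.

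**Figure D4:**
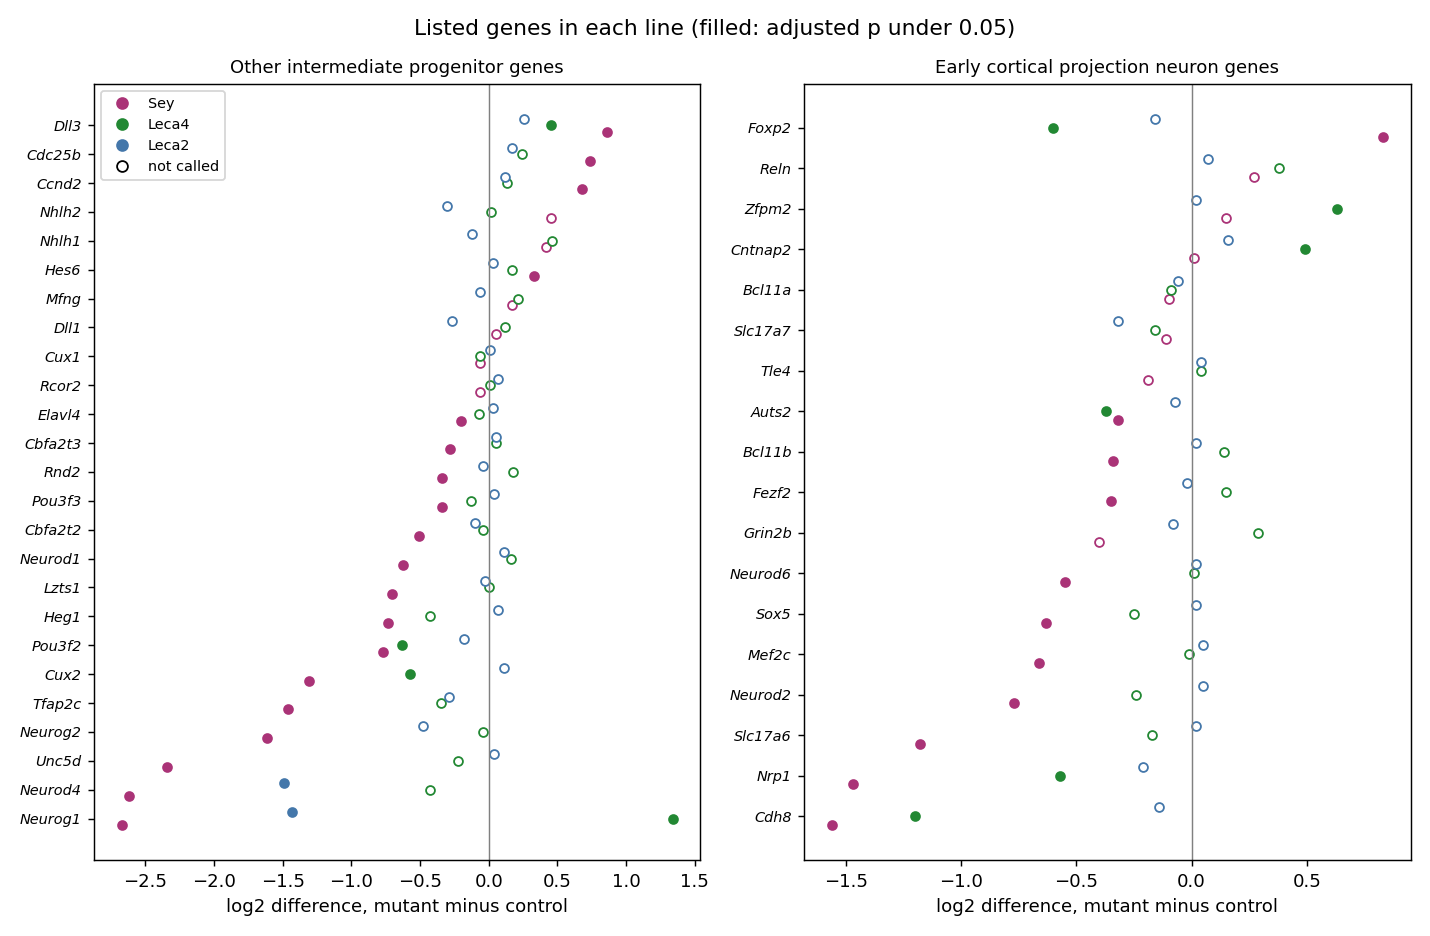
Log2 difference of mutant minus littermate control (x axis) for other genes of intermediate progenitors (left) and of early cortical projection neurons (right), ordered by the change in Sey, with Sey, Leca4 and Leca2 in separate colours; filled points have an adjusted p under 0.05 and open points do not. Most filled points are those of Sey on the left of 0, with Neurog1 at -2.67 in Sey, -1.43 in Leca2 and 1.34 in Leca4.

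Of 18 tested genes listed for early projection neurons, cells that express Tbr1, 10 fell and 1 rose in Sey (median -0.35), where 9.41% of all genes fell and 10.7% rose. The list includes Reln, which other early-born neurons also express, and Slc17a7, which read only 6.04 ± 0.04 (SD) in Sey controls. Neither was called in Sey. The vesicular glutamate transporter gene Slc17a6 changed by -1.18 ± 0.09, Cdh8, which encodes a cadherin, by -1.56 ± 0.12 and Nrp1, which encodes neuropilin, by -1.47 ± 0.13, while the transcription factor gene Foxp2 rose by 0.83 ± 0.13 (limma adjusted p = 1.54e-08, 4.36e-08, 1.47e-07 and 8.29e-05). In Leca4, where Tbr1 was not called, 4 fell and 2 rose (median -0.05; 2.24% and 3.39% of all genes), with Cdh8 at -1.20 ± 0.12, Auts2 at -0.37 ± 0.06 and Foxp2 at -0.60 ± 0.13 among the falls and the zinc-finger cofactor gene Zfpm2 (0.63 ± 0.09) and Cntnap2 (0.49 ± 0.10) upward. In Leca2, where 0.477% of all genes were called, 0 of 18 were called in limma, with 1 at an unadjusted p under 0.05.

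Of 15 other T-box genes, 6 were tested, as the rest had no kept or named probe set. None was called in limma in Sey, Leca4 or Leca2, with 1, 2 and 0 at an unadjusted p under 0.05, and 1 rose in Sey with a term for sex. Apart from Mga, at 7.82 ± 0.08 (SD, n = 3) in Sey controls, they read close to the level of the filter, such as Tbx3 at 5.11 ± 0.16. Of 13 tested relatives and ligands of the other members, 3 rose and 2 fell in Sey (10.7% and 9.41% of all genes), 1 rose in Leca4 (3.39% of all genes) and 0 were called in Leca2 in limma (2 at an unadjusted p under 0.05). Beside those given above, the zinc-finger gene Scrt2 fell in Sey (-0.39 ± 0.08, adjusted p = 0.00107).

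The genes whose values were most like those of each called member were found by the root mean square difference, over the 11 mutant arrays, of the log2 value minus the control mean of the line. For Eomes they were Nrn1, which encodes the membrane-anchored protein neuritin (0.142), Ppp1r1a, an inhibitor subunit of protein phosphatase 1 (0.182), and the heparan sulfate sulfotransferase gene Hs3st1 (0.228). Nrn1 changed by -1.71 in Sey, -0.21 in Leca4 and -0.08 in Leca2, beside -1.64, -0.12 and 0.04 for Eomes. For Tbr1 they were Herc3 (0.17) and Prdm8 (0.199), and Sstr3, whose place rests on Sey mutant values at the filter level and which is given no distance for that reason. For Sstr2 they were Znrf2 (0.112), Rasgef1b (0.116) and Ppp2r2b (0.123). For Gadd45g they were Nsl1 (0.1), Ttk (0.116) and Dlgap5 (0.118), genes of the kinetochore and the mitotic spindle, which changed by 0.82, 0.82 and 0.78 in Sey. For Insm1 they were the glutamate receptor gene Gria4 (0.0979), Dlgap3 (0.104) and Zbtb42 (0.111). Among the members themselves, Tbr1 and Sstr2 were nearest to each other (0.256), then Insm1 and Gadd45g (0.314), and Eomes and Gadd45g were farthest apart (1.55). All distances from Insm1 rest on its brighter probe set, whose rise in Sey the second probe set did not give.

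Other lists of markers also moved in Sey, where 10.7% of all genes rose and 9.41% fell. All 11 tested cell division markers rose (mean log2 level per array from 10.03 to 10.09 in controls and from 10.74 to 10.84 in mutants, median change 0.71), as did 9 of 12 ventral telencephalon markers (6.69 to 6.96 against 8.67 to 9.24, median 2.38). Of 7 Cajal-Retzius markers, genes of early-born marginal zone neurons that also use Tbr1, 6 rose (7.52 to 7.68 against 8.29 to 8.59, median 0.87), and 5 without Sey mutant 1 or with a term for sex. Reln, also a gene of these neurons but counted in the projection neuron list, was not called in Sey (0.27 ± 0.22, limma adjusted p = 0.439). Of 14 radial glia markers, Pax6 among them, 4 rose and 3 fell (10.32 to 10.38 against 10.25 to 10.47, median 0.03). With a term for sex 3 radial glia markers rose and 1 fell, and 10 of 11 cell division markers rose. Olfactory mitral cells also express both T-box genes, and of 5 tested mitral markers none but Eomes and Tbr1 was called, with Tbx21 below the filter. The other tested mitral markers read low in Sey controls. Cdhr1 was at 4.95, with no control above the filter level, and Slc17a7 and Lbhd2 were at 6.04, near the array medians of 6.03 to 6.07. Their missing calls therefore do not show whether mitral cells changed. The part of dividing cells and of these cell types in the changes of the 6 genes was not tested.

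Of the remaining markers in Sey, 0 of 8 endothelial (mean level 7.36 to 7.44 in controls and 7.32 to 7.49 in mutants), 0 of 8 microglial, 0 of 5 erythroid and 0 of 4 choroid plexus markers were called in limma, with 1, 0, 0 and 1 at an unadjusted p under 0.05, and 1 of 5 meningeal markers rose, Prrx1. With a term for sex 1 endothelial marker rose. Of 7 dorsal telencephalon genes 3 rose and 1 fell, against 10.7% and 9.41% of all genes, with Emx2 up by 0.72 ± 0.17 and Id4 at -0.46 ± 0.09. In Leca4, where none of the 6 genes was called, 3 of 8 microglial markers rose (7.35 to 7.54 in controls against 7.67 to 7.82 in mutants), against 3.39% of all genes. In the same line 0 of 11 cell division, 0 of 12 ventral and 0 of 7 Cajal-Retzius markers were called (1, 2 and 0 at an unadjusted p under 0.05), against 5.62% of all genes. In Leca2 the same 3 lists had 0 called genes (2, 2 and 0 at an unadjusted p under 0.05), where 0.477% of all genes were called.

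**Figure D5:**
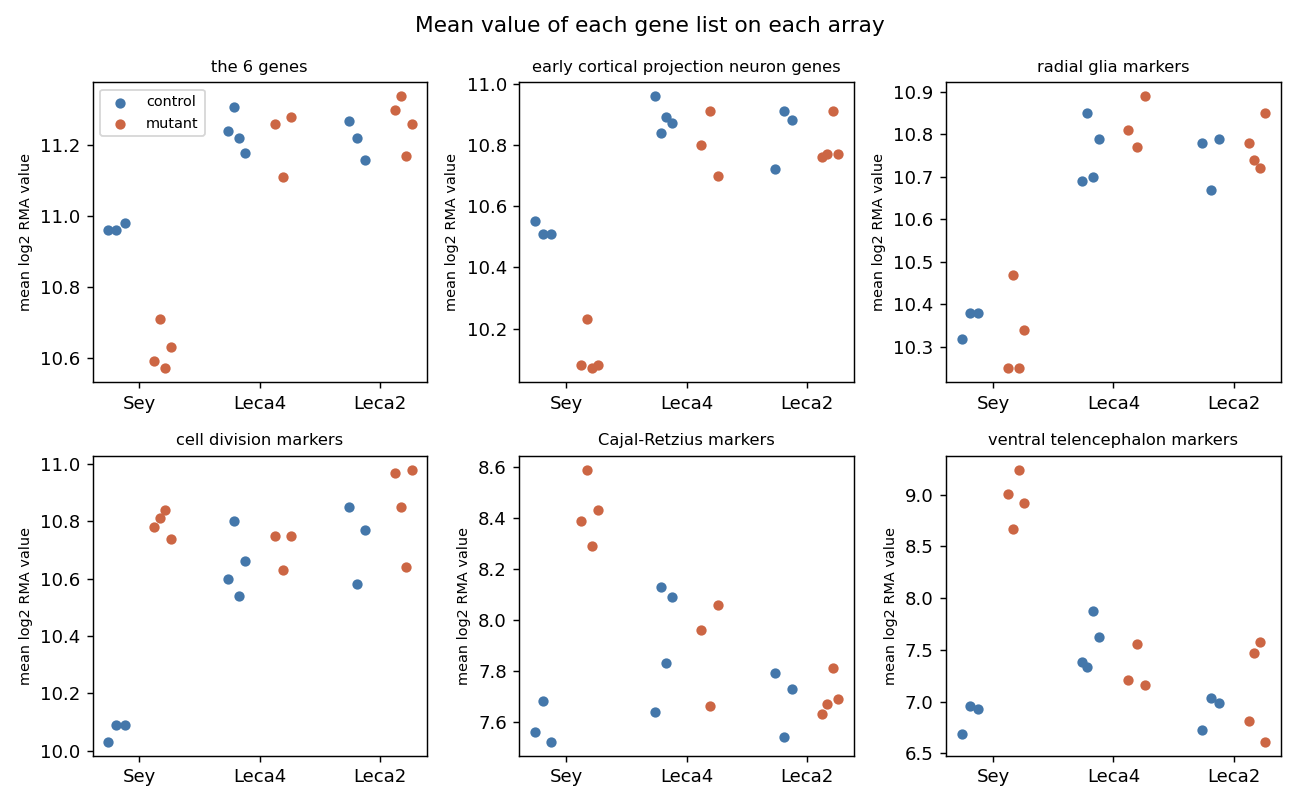
Mean log2 RMA value over each gene list (y axis, each panel with its own range) on every array, by line (x axis), for littermate controls (blue) and mutants (orange). In the Sey line the mutants lie below the controls for the mean of the 6 genes and for early projection neuron genes and above them for cell division, Cajal-Retzius and ventral markers, and the radial glia markers overlap. The mean of the 6 genes joins falls and rises, from -1.64 for Eomes to 0.90 for Gadd45g.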

How the data were processed

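The deposited table holds log2 RMA expression values of 21 Affymetrix arrays, 1 per sample, of embryonic day 14 rostral cortex. The authors made these log2 values with RMA, per the submitters' processing notes; no version, settings or genome build is given in the sources used here. Distributions matched within a line and differed between lines, and how lines were normalized relative to each other is not stated. Of 45101 probe sets, 34945 named 1 gene, 932 several and 9160 none, and 64 were controls. Symbols were updated by gene ID to RefSeq GRCm38.p6 for 34741. Kept probe sets had at least 3 arrays above the array's 40th percentile, between 5.37 and 5.60. For each of 13850 genes the brightest kept probe set (highest mean over all arrays) was used.

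The test was limma 3.58.1 (R 4.3.3) in 1 model of 6 groups (15 residual degrees of freedom), two-sided, with Benjamini-Hochberg adjustment per contrast; the labels state no test. A single Eomes minus Tbr1 comparison per line used exact permutations of the arrays. The pipeline was tested on simulated data. Errors after a change are standard errors of the fit. The 6 genes and the 15 gene lists, with 146 of 171 symbols tested, were chosen with earlier results of these data known. The genes named beside the 6 were Pax6, in each list up to 3 called genes per direction and line with the smallest p, and the 3 genes most like each called member. Emx1, Lhx2, Neurog2, Tbx3, Mga, Tob1, Tob2, Sst, Cort, Gadd45b, Insm2, Heg1, Hes6, Tbx21, Reln, Slc17a7, Cdhr1 and Lbhd2 were named as relatives, defining genes, remaining counts or low readings. Alternatives were other samples in the fit, blocks, filters, summaries of probe sets, variance models, normalizations, a term for sex and leaving out arrays; list counts with the term for sex or without Sey mutant 1, and the second Insm1 probe set without it, were added after the data were seen. The number of arrays limits the precision. Same-numbered mutants and controls did not deviate together: their correlations ran from -0.44 to 0.338, so the numbers were not taken as pairs.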

Additional observations from a re-analysis of the deposited data

Results flagged for a closer look

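On the Gadd45g probe set, Leca2 mutant 3 lay at 10.54 while the other 3 mutants lay between 10.86 and 10.87, a gap of 0.964 of the whole range. It was the 1 such array among 27 groups of 4 examined over the 9 probe sets, and chance gives about 1 in 20.

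The change in Sey differed from that in Leca4 by -1.52 for Eomes, -0.89 for Tbr1, -0.91 for Sstr2 and 0.85 for Gadd45g, and from that in Leca2 by -1.69, -0.85, -1.09 and 0.81, each by the limma test of the difference itself. The Sey line has another strain background than both Leca lines, so allele and background cannot be told apart in these differences.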

How the results depend on the processing

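Of 324 values of the 6 changes under other settings, 323 kept their side of the threshold, and where called their direction. The exception was Insm1 in Sey with the mean of its probe sets (0.23, limma adjusted p = 0.28). In Sey between 4 and 5 of the 6 genes were called under every setting, and in Leca4 and Leca2 0. Eomes in Sey ranged from -1.73 to -1.53 and Tbr1 from -0.97 to -0.69 over all settings.

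The number of genes called, 779 in Leca4 and 66 in Leca2, was 400 and 27 with only the groups compared, 450 and 28 with the replicate block, and in Leca2 121 with array weights. Leaving out each array gave 512 to 749 in Leca4, lowest without mutant 1, and 40 to 61 in Leca2, lowest without mutant 2. In Sey, 2791 genes became 1936 to 3699 under other settings. With the replicate block the Tbr1 difference was -0.76 between Sey and Leca4 (limma adjusted p = 0.0716) and -0.86 between Sey and Leca2 (adjusted p = 0.0651), and no other call on the 6 genes changed under the block. Eomes minus Tbr1 in Sey ranged from -0.94 to -0.56 when each array was left out; with the replicate block no p under 0.25 can be reached (exact sign-flip test). The 3 or 4 arrays a group limit the precision to the intervals given.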
